A study of Mus musculus with 10 samples.

Results

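The genes described here are 10 markers and regulators of intestinal stem and progenitor cells, out of 21938 protein-coding genes on the mouse chromosomes in GENCODE M21. They are the transcription factors Sox9, Myc and Ascl2, the receptors Lgr5, Ephb2, Ephb3 and Cd44, the signalling regulators Lrig1 and Smoc2, and the Polycomb protein Bmi1. They were listed by name for their known roles, with earlier results of these data known. The study itself reports binding of the aryl hydrocarbon receptor (AHR) at the Sox9 promoter. Shares of the 10 genes set beside all genes are therefore not those of an unselected list. Each AHR peak that overlapped a gene, or the 10 kb on either side of it, by at least 1 bp was taken as a peak of that gene. This gave 60 of the 123652 wild type (WT) peaks, at 9 of the 10 genes, and 0 of the 1931 peaks of the AHR knockout (AHR KO).

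The peaks come from chromatin immunoprecipitation with sequencing (ChIP-seq) with an anti-AHR antibody on mouse colon organoids, epithelial cultures grown from crypts. All cultures were grown in WENR, a Wnt-rich medium that keeps the cells stem-like, and all received 5 nM FICZ, a high-affinity AHR ligand, for 1 hour, so neither genotype had an unstimulated group. The WT group had 4 ChIP and 4 input libraries, and the AHR KO group had 1 ChIP and 1 input library. The labels name the knockout only as AHR KO, and the study's methods describe organoids from colon crypts of WT mice and of mice with floxed Ahr and Cre under the epithelial Villin promoter, from 4 biological replicates for the ChIP.

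The colonic epithelium is renewed from stem cells at the crypt base, where Wnt signalling is high and genes such as Lgr5 and Ascl2 are active. Ligand-bound AHR pairs with ARNT in the nucleus and binds DNA at the word TNGCGTG, whose invariant core is GCGTG. CA repeats are long alternating runs of C and A, and a run interrupted by a G, as in CACGC, spells the core on the other strand.

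Each peak has a score, which is a fold enrichment over background, computed on the 4 WT cultures together. There is no value per culture, so no spread between cultures can be given for any score below, and with 1 AHR KO library the genotypes have no replicate check. In the WT list the scores of 63809 peaks fell on a step of 0.332, as they do over a flat background of 2.01 fragments. A score counted as on the step if it was a whole multiple of it to within about the rounding of the scores. For these peaks the number of fragments under the peak can be read from the score. A score of 5.98 is 17 fragments, with an exact 95% Poisson interval of 9.90 to 27.2 fragments or a score of 3.62 to 9.38, and intervals of this kind cover counting error only. In the AHR KO the background was 0.287 fragments, so scores were not compared between the lists. The peak lists hold no expression values, so the state of these genes in the cultures could not be checked from them.

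The highest peak at any of the genes was at the Sox9 promoter, with a score of 14.9, rank 151 of the WT list. Next came peaks within Ephb2 at 11.6 and within Lgr5 at 9.65. The best peaks of Lrig1 and Cd44 were both at 7.64, followed by Smoc2 at 7.31, Myc at 7.03, Ephb3 at 6.31 and Ascl2 at 5.64, and Bmi1 had none. The best peaks of Cd44, Lrig1, Smoc2 and Ephb3 were 22, 22, 21 and 18 fragments high with overlapping Poisson intervals, so their order is within counting error. Those of Sox9, Ephb2, Lgr5, Myc and Ascl2 were off the step, so no fragment count or counting error can be given for their places. On the step were 29 of the 60 peaks (48.3%), beside 51.6% of all WT peaks. Over the 60 peaks the median score was 5.85 (quartiles 4.98 and 6.49), beside a median of 5.32 (quartiles 4.53 and 5.98) over all WT peaks.

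**Figure D1:**
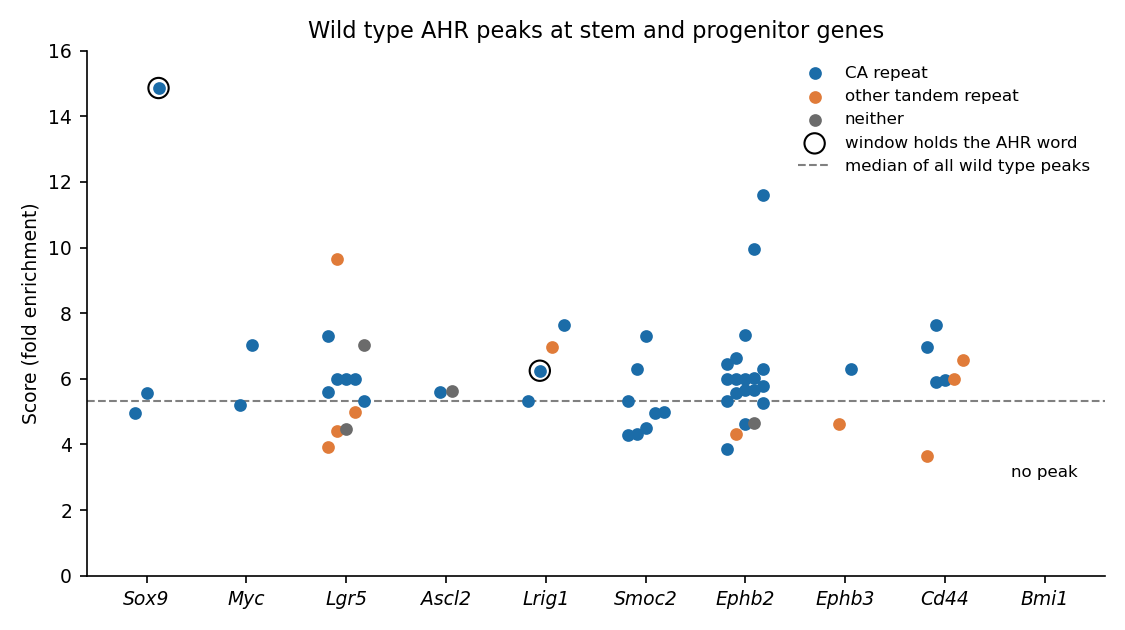
Score (fold enrichment over background) of every WT peak at each gene. Each point is 1 peak, colours give the repeat class of the 200 bp around its midpoint, open rings mark windows with TNGCGTG, and the dashed line is the median of all WT peaks. The Sox9 promoter peak at 14.9 stands above the other 59 peaks, which lie between 3.66 and 11.6.

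A WT peak was present at 9 of the 10 genes, beside 78.3% of all protein-coding genes. A peak in the top 10% of scores was present at 6 of them, beside 23.0%, and a peak with its midpoint in a promoter (1 kb upstream to 100 bp downstream of an annotated transcript start) at 4 of them, beside 9.27%. No AHR KO peak was present at any of the 10, beside 4.47% of protein-coding genes. Gene length moved with these counts. The 5 members over 50 kb (Lgr5, Ephb2, Cd44, Lrig1 and Smoc2) held 51 of the 60 peaks, and among all protein-coding genes of that length 96.6% had a WT peak and 47.9% had one in the top 10%, which all 5 members had. Per 100 kb searched, the 5 long members had 6.92 peaks and all genes of that length 4.53, while the 4 members of up to 10 kb had 6.82 and all genes of that length 4.47. Ephb3, the only member between these lengths, had 5.19, beside 4.55. The members differed, and Lrig1, 1 of the 5 long members, had 3.46, below the value for all genes of its length.

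Of the 60 peaks, 41 (68.3%) were in introns, 8 (13.3%) upstream of the gene, 7 (11.7%) downstream and 4 (6.67%) in promoters, and none had its midpoint in an annotated exon of its gene outside a promoter. Over the 68500 pairs of a WT peak and a protein-coding gene found by the same rule, 65.1% were intronic, 15.4% upstream, 15.1% downstream, 3.20% in promoters and 1.26% in exons. The promoter peaks had scores of 5.98 to 14.9 (median 7.01) and the intronic peaks 3.66 to 11.6 (median 5.97). The ranges overlap, and the upper end of the promoter range is the Sox9 peak alone.

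**Figure D2:**
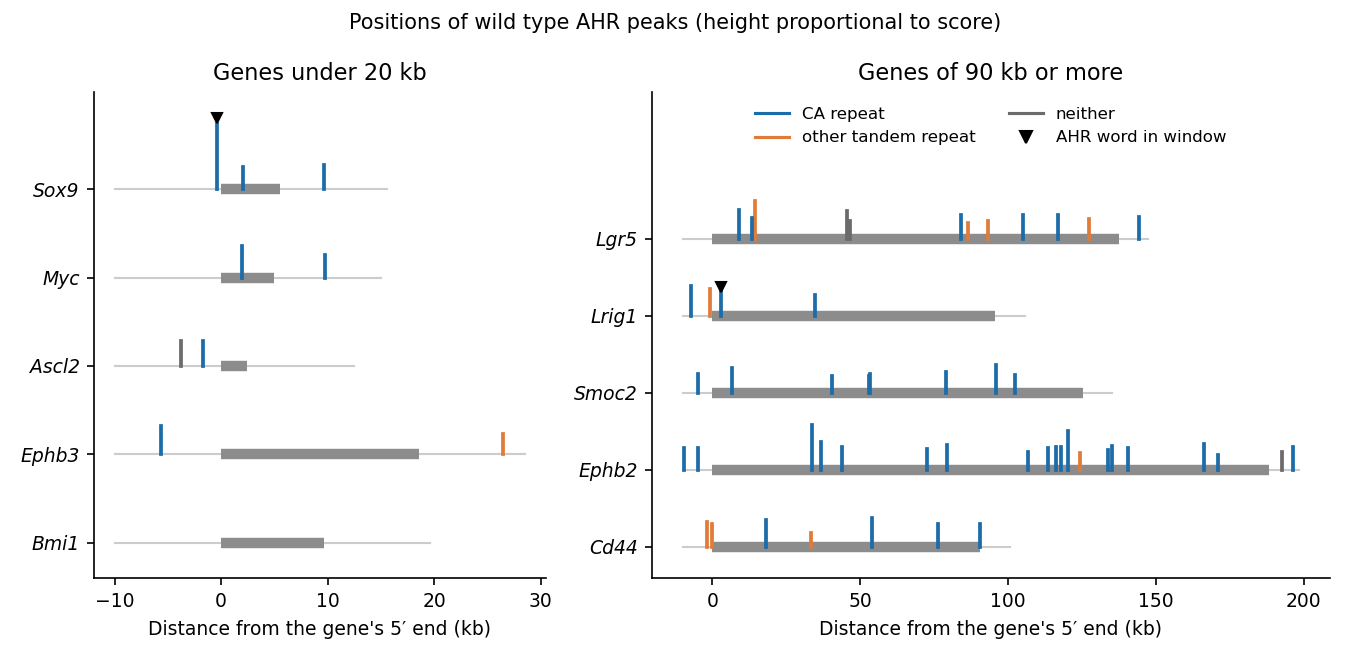
Position of each WT peak as the distance of its midpoint from the 5′ end of the gene in kb, with upstream to the left. Thick grey bars are gene bodies, thin lines the 10 kb searched on either side, the height of each coloured line is proportional to the score, and black triangles mark windows with TNGCGTG. Of the 20 Ephb2 peaks 16 were in introns, as were 11 of the 12 Lgr5 peaks, and Bmi1 carried 0.

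Sox9 is a transcription factor of crypt-base and progenitor cells and a target of Wnt signalling. It lies on chromosome 11 from 112782224 to 112787760 (GRCm38, plus strand). Its promoter peak, chr11:112781713-112782046, was centred 344 bp upstream of the start, overlapped the non-coding transcript BC006965, and was higher than 99.9% of WT peaks. The 200 bp around its midpoint are printed because this is the highest member peak and holds the full AHR word. On chr11:112781780-112781979, plus strand, with each GCGTG or its reverse complement and the full word in capitals, it reads:
Sox9 promoter window: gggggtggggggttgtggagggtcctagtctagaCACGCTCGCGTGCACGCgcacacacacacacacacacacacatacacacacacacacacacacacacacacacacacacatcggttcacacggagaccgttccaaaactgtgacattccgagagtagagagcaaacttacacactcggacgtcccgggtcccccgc

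Left of the repeat, which is broken into a shorter and a longer CA run, stand 3 copies of the core within a short stretch. The middle copy, TCGCGTG on the plus strand, is the full AHR word, and it ends 6 bp before the shorter run. The outer copies, GAGCGTG and GCGCGTG, lie on the minus strand, 13 and 1 bp from that run. The longer run, further to the right, has 37 bases with its centre 4.5 bp from the midpoint, and 51% of the window was soft-masked, which is how the genome sequence marks repeats. The window also held 1 GGAATG, the word of TEAD factors, and 13 CpG pairs.

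The other Sox9 peaks were lower and had no core. In the intron, 2.06 kb from the start, the score was 4.96, and 9.65 kb from the start, beyond the gene's end, it was 5.58. Both lay on CA runs of 41 bases. Among all 85 promoter peaks in the genome that held TNGCGTG, whose median score was 6.45, the Sox9 peak was the third by score. The peaks nearest to it by score were at Ugdh (14.6), Cd109 (12.3), Cyp1a1 (17.97), Cdk19 (11.0) and Hoxa13 (11.0). Those of Ugdh, Cd109 and Hoxa13 were CA repeats like that of Sox9, while the Cyp1a1 window was 0% masked and also held 3 cores. Cyp1a1, the classical AHR target, also had 0 AHR KO peaks. The highest of the 85, at Stc2 (20.3), was a CA repeat with 5 cores and did overlap an AHR KO peak. Sox9 was the only member with a promoter peak that held TNGCGTG, a property of 0.41% of protein-coding genes.

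Myc, the growth-promoting transcription factor and a Wnt target, lies on chromosome 15 from 61985391 to 61990374 (plus strand). Its higher peak, chr15:61987258-61987475, scored 7.03 (rank 12712) and was centred 1.98 kb into the gene, 55 bp upstream of the start of a further annotated transcript, so it counts as a promoter peak of that transcript only. Its window had a CA run of 47 bases and 1 core. The part between the flanking annotated exons, chr15:61987304-61987421, plus strand, is printed to show the core beside the run, with its reverse complement in capitals:
Myc window: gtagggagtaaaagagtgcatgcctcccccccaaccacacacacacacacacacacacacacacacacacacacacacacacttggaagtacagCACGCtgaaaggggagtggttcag

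This core, CAGCGTG on the minus strand, differs from the full word in its first base, was not masked, and lay 12 bp from the run. The other Myc peak was downstream, 9.79 kb from the start, with a score of 5.19, a CA run of 58 bases and no core.

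Ascl2, the transcription factor that sets stem cell identity with Wnt signalling, lies on chromosome 7 from 142966829 to 142969264 (minus strand). Both of its peaks were upstream and near the list median. At 1.75 kb from the start the score was 5.59 on a CA run of 43 bases. At 3.80 kb from the start it was 5.64, in a window that was 100% masked, had no tandem run and held 1 GGAATG. Neither window had a GCGTG.

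Lgr5, the R-spondin receptor that marks cycling crypt-base stem cells, spans 137 kb of chromosome 10 from 115450311 to 115587780 (minus strand). It had 12 WT peaks with scores from 3.92 to 9.65 (median 5.79), of which 6 were CA repeats, 4 were other tandem repeats and 2 were neither. None was in a promoter. The highest, chr10:115572886-115573771, was 886 bp wide, the widest of the 60, and ranked 1689. It lay 14.5 kb from the start, where the gene A930009A15Rik overlaps, and it was no CA repeat but a tandem array of the unit AGAGGC, with a GC content of 65% and no CpG. Its central 120 bases, chr10:115573269-115573388, plus strand, are printed with the longest perfect run in capitals:
Lgr5 highest peak: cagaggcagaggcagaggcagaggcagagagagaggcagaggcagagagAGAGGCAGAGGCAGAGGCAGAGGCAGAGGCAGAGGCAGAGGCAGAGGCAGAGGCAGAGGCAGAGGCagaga

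Towards the start, the next Lgr5 peaks were at 13.3 kb with a score of 5.32 and at 8.81 kb with a score of 7.31 and 21 fragments, on CA runs of 35 and 61 bases. Both also lay within A930009A15Rik. A pair of peaks at 45.6 and 46.5 kb sat in fully masked sequence with no tandem run, with scores of 7.04 and 4.48. The lower of these, chr10:115541088-115541410, held TGGCGTG outside its central window, on chr10:115541110-115541154, plus strand, where it is in capitals:
Lgr5 word: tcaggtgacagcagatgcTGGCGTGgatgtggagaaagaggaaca

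Further into the introns, scores were 5.98 at 84.0, 105 and 117 kb, all 3 on CA runs of 39 to 57 bases and 17 fragments high. The windows at 84.0 and 117 kb each held 1 unmasked core, AAGCGTG and AGGCGTG. Between and beyond them lay the low peaks on other repeats, with scores of 3.92 at 86.6 kb and 4.98 at 128 kb on AAG arrays and 4.42 at 93.3 kb on an ACACAG array. The last peak, 144 kb from the start and downstream of the gene, scored 5.59 and held a CA run of 31 bases. It was 7.19 kb from an AHR KO peak, the closest that any of the 60 came to the AHR KO list.

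Ephb2 and Ephb3 are receptor tyrosine kinases for ephrin-B ligands, Wnt targets that position cells along the crypt. Ephb2 spans 188 kb of chromosome 4 from 136647539 to 136835988 (minus strand) and had the most peaks, 20, or 9.59 per 100 kb searched. Their scores ran from 3.85 to 11.6 (median 5.88), and 18 of them were CA repeats. None was in a promoter and none held TNGCGTG.

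The highest Ephb2 peak, chr4:136802082-136802520, scored 11.6 (rank 526), 33.7 kb into the gene, on a CA run of 32 bases in a window that was 99% masked. The second, 120 kb into the gene, scored 9.97 (rank 1319) with 29 fragments and a CA run of 29 bases. Another, 36.7 kb into the gene, was 477 bp wide and scored 7.33, with 8 copies of CACACA or TGTGTG but no run over 11 bases. No other Ephb2 peak was in the top 10% of scores.

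Among the other intronic Ephb2 peaks, those at 43.9 and 116 kb scored 5.98, those at 79.5, 135 and 166 kb scored 6.46, 6.31 and 6.65, and those at 118 and 141 kb scored 6.02 and 5.78. Lower scores were found at 72.7 kb (5.32), 134 kb (5.27), 107 kb (4.61) and 171 kb (3.85). These were all CA repeats, with longest runs from 11 to 75 bases. The 125 kb peak, with a score of 4.33, was on an AGAT array. Upstream, at 4.76 and 9.68 kb, both scores were 5.65 on CA runs of 29 and 41 bases. Downstream of the gene, 193 and 196 kb from the start, scores were 4.65 in masked sequence that was no CA repeat and 5.98 on a CA run of 59 bases with 1 GGAATG.

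Cores were present in 6 Ephb2 windows. The window at 171 kb held 3, those at 118 and 134 kb held 2 each, and those at 72.7 and 135 kb and at 4.76 kb upstream held 1 each. Apart from CCGCGTG at 72.7 kb all of these copies were masked. At 171 kb, where the Ephb2 score was lowest, a core on each strand, overlapping by 2 bases, stood in the CA run.

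The least masked window of all 60 was an Ephb2 window too. The peak chr4:136722382-136722788, 113 kb into the gene, scored 5.57, and 26% of its central 200 bp was masked. It is printed as the least masked window, and it was also the only member window with an AP-1 word (TGACTCA or TGAGTCA, bound by FOS and JUN proteins). On chr4:136722485-136722684, plus strand, with that word in capitals, it reads:
Ephb2 least masked window: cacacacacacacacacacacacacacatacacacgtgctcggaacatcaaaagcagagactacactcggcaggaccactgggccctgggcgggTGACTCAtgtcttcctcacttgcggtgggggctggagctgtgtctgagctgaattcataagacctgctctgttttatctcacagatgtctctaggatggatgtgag

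Ephb3 lies on chromosome 16 from 21204755 to 21223305 (plus strand) and had no peak in its gene body. Its upstream peak, 5.69 kb from the start, scored 6.31 on a CA run of 36 bases. The downstream one, 26.5 kb from the start, scored 4.61 and lay in an array of the same AGAGGC unit as the highest Lgr5 peak, read here on the other strand. Its central 120 bases, chr16:21231156-21231275, plus strand, are 1 perfect run and are printed in capitals for comparison with the Lgr5 array:
Ephb3 downstream peak: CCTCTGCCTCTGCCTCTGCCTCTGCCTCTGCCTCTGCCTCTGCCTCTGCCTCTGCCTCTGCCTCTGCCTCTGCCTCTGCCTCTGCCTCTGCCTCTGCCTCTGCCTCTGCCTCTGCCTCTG

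Both arrays had a GC content of 65%, no CpG and no core, yet the scores were 9.65 and 4.61. With no value per culture, the spread around these scores is unknown.

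Cd44, a hyaluronan receptor and Wnt target on crypt progenitors, spans 90.5 kb of chromosome 2 from 102811141 to 102901665 (minus strand). Its 7 peaks scored from 3.66 to 7.64 (median 5.98), and none held a core. The promoter peak, chr2:102901815-102902012, was 249 bp upstream of the start and scored 5.98 with 17 fragments. It sat on a GA run with no CA repeat and no CpG, and its window, chr2:102901814-102902013, plus strand, is printed with that run in capitals to contrast with the Sox9 promoter:
Cd44 promoter window: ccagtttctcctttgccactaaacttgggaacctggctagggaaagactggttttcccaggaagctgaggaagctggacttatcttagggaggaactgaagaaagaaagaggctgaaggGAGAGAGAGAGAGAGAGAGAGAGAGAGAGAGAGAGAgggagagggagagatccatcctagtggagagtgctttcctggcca

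A further Cd44 peak 1.94 kb upstream scored 6.57 and held short ACAG runs, again without CA repeat. Inside the gene, the peaks on CA runs scored 6.98 at 18.1 kb, 7.64 at 53.9 kb and 5.97 at 76.2 kb, and the peak on an AAAG array at 33.4 kb scored 3.66, the lowest of the 60. At the 3′ end of the gene, 90.5 kb from the start, a CA repeat peak scored 5.92.

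Lrig1, a transmembrane protein that restrains ErbB signalling and marks crypt stem cells, spans 95.6 kb of chromosome 6 from 94604529 to 94700158 (minus strand). It had 4 peaks, and 3 of them lay within 8 kb of its start. The promoter peak, chr6:94700967-94701202, was 927 bp upstream and scored 6.98 with 20 fragments on a GA run of 56 bases, with 1 core. The highest, 7.39 kb upstream, scored 7.64 with 22 fragments on a CA run and no core. An intronic peak 34.8 kb from the start scored 5.32.

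The remaining Lrig1 peak, chr6:94697131-94697361, scored 6.25, 2.91 kb into the gene in an intron, and its window is the second of the 60 with TNGCGTG. On chr6:94697146-94697345, plus strand, with GCGTG and the full word in capitals, it reads:
Lrig1 intron window: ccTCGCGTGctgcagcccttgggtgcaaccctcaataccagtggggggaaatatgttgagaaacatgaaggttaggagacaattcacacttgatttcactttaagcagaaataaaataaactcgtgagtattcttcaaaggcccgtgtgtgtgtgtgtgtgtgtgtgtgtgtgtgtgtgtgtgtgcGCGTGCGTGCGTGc

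The full word, TCGCGTG, is not masked and lies 93.5 bp from the midpoint, at the edge of the window and 135 bp from the CA run. At the other edge the end of the CA run gives 3 further cores, all masked. The full word at Sox9 was masked and 56.5 bp from the midpoint, so the same 7 letters stood in different surroundings at these genes.

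Smoc2, a secreted matricellular protein found in crypt-base cells, spans 125 kb of chromosome 17 from 14279506 to 14404790 (plus strand). All 8 of its peaks were CA repeats, with CA runs of 27 to 59 bases, and 5 of the 8 scores were under the WT median of 5.32. At 40.4 kb, where the CA run had 27 bases, the window also held a longer GA run of 56 bases. The highest, 95.8 kb from the start, scored 7.31 with 21 fragments and held the only Smoc2 core, GCGCGTG, 1.5 bp from the midpoint, where a GC run passes into the CA repeat. The peak 6.54 kb from the start scored 6.31. The others scored 4.98 upstream at 4.74 kb and 4.27, 4.32, 4.96, 5.32 and 4.49 at 40.4, 53.0, 53.4, 79.1 and 102 kb.

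Bmi1, a subunit of Polycomb repressive complex 1 linked to slower-cycling stem cells, lies on chromosome 2 from 18677018 to 18686629 (plus strand) and had no WT and no AHR KO peak. The nearest WT peak, chr2:18665250-18665441, was 11.6 kb from the gene with a score of 5.32. The searched region held 0 CA runs of 20 bases or more, against 3 to 45 at every other member, and 8 copies of TNGCGTG. One of these copies is in the RefSeq promoter of Bmi1 (250 bases before to 50 after the start, GRCm38.p6). Promoter sequences were used for 6 members, without Sox9, Myc, Lgr5 and Smoc2. Of these 6, Bmi1 was the only one with the full word, which 5.07% of all 32851 such promoters held, and 5 of the 6 held the core, beside 32.4%.

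Taking the 60 windows of 200 bp together, 46 (76.7%, 95% Wilson interval 64.6 to 85.6) were CA repeats, in which CACACA or TGTGTG occurs 3 times or more without overlap, beside 57.3% of all WT peaks. Another 10 were on other tandem repeats (14.5% of all WT peaks) and 4 on neither (6.67%, interval 2.62 to 15.9, beside 28.2%), which were Ascl2 at 3.80 kb, the Lgr5 pair at 45.6 and 46.5 kb and Ephb2 at 193 kb. The longest CA run in the 46 windows was 11 to 75 bases with a median of 39, which was also the median over all CA repeat peaks, and its centre lay a median of 20.5 bp from the midpoint, beside 25.5 bp. At least 50% masked were 39 of the 60 (65.0%, interval 52.4 to 75.8), beside 86.0%, and 0 were under 25% masked, which allows a share of up to 5.00%, beside 0.454%. Wilson intervals treat peaks as independent, although several share a gene and a repeat type. The list of all WT peaks also includes those far from any gene, unlike the 60, and what this did to the shares was not tested.

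**Figure D3:**
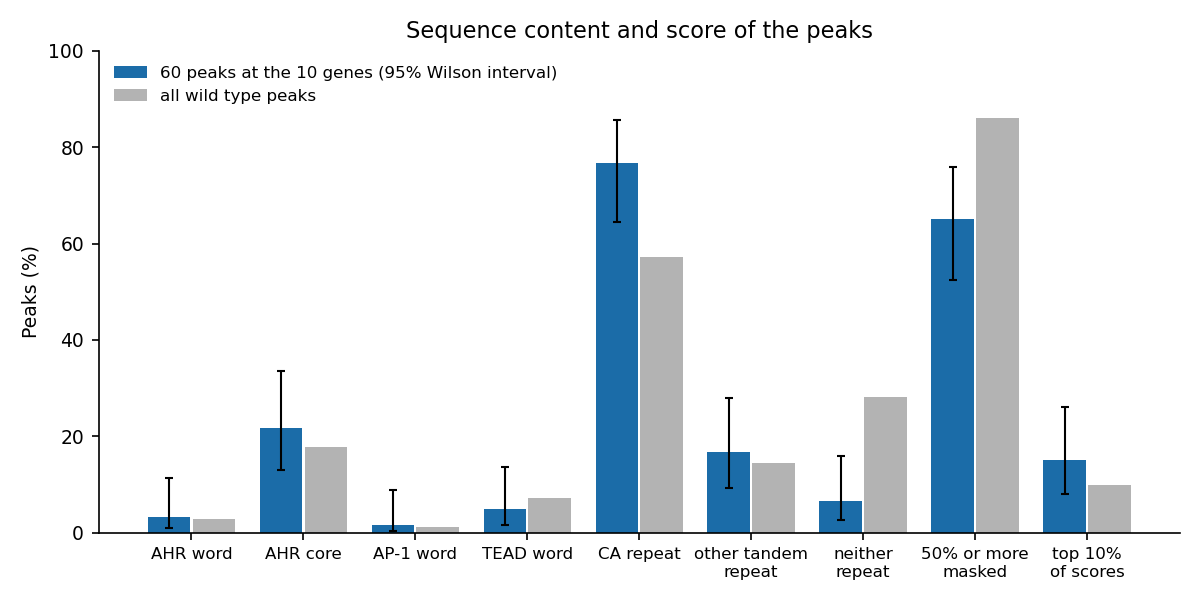
Share of peaks (%) with each feature, for the 60 peaks at the 10 genes (blue, with 95% Wilson intervals for counting error) and for all WT peaks (grey). CA repeats made up 76.7% and 57.3%, windows at least 50% masked 65.0% and 86.0%, and TNGCGTG 3.33% and 2.84%.

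The AHR word was found in few of the windows. TNGCGTG was in 2 of 60 (3.33%, interval 0.919 to 11.4), beside 2.84%, and GCGTG in 13 of 60 (21.7%, interval 13.1 to 33.6), beside 17.7%. Those 13 windows held 22 copies of the core, of which 15 were fully masked and 14 lay within 10 bp of a CA run of at least 8 bases. Copies were not counted in this way over all WT peaks, so no share stands beside these counts. Of the 46 CA repeat windows, 12 held the core. Scores of the 13 ran from 3.85 to 14.9 (median 6.02) and of the other 47 from 3.66 to 11.6 (median 5.64). The ranges overlap between 3.85 and 11.6, with the Sox9 peak above that stretch and a Cd44 peak below it. The AP-1 word was in 1 window, beside 1.28%, and GGAATG in 3, beside 7.24%.

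Read from the sequence instead of the peaks, the regions of the 10 genes held 96 copies of TNGCGTG, of which 3 (3.13%, interval 1.07 to 8.79) lay in a WT peak, beside 2.75% of 181198 in the genome. Those 3 were the Sox9, Lrig1 and Lgr5 copies described above. Of 120 CA runs of 20 bases or more, 51 (42.5%, interval 34.0 to 51.4) lay in a WT peak, beside 30.9% of 279755. For runs of 50 bases or more it was 13 of 20 (65.0%, interval 43.3 to 81.9), beside 44.9%, for runs of 40 to 49 bases 10 of 29 (34.5%, interval 19.9 to 52.7), beside 35.6%, for runs of 30 to 39 bases 17 of 35 (48.6%, interval 33.0 to 64.4), beside 27.9%, and for runs of 20 to 29 bases 11 of 36 (30.6%, interval 18.0 to 46.9), beside 24.8%. In the genome the share rose with each length class, while at the 10 genes the class of 40 to 49 bases was below that of 30 to 39, with intervals that overlap.

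**Figure D4:**
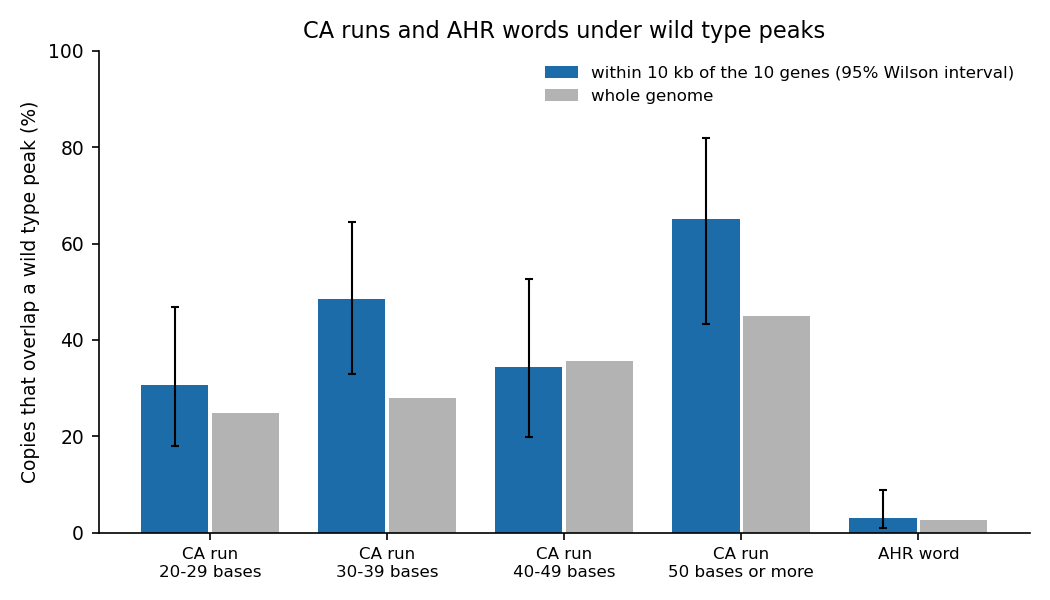
Share (%) of CA runs, by length, and of TNGCGTG copies that overlap a WT peak, in the searched regions of the 10 genes (blue, with 95% Wilson intervals) and in the whole genome (grey). Of the TNGCGTG copies 3.13% and 2.75% lay in a peak, and of CA runs of 50 bases or more 65.0% and 44.9%, while for runs of 40 to 49 bases the shares were 34.5% and 35.6%.

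None of the 60 WT peaks overlapped an AHR KO peak, which allows a share of up to 5.00%, beside 1.51% of all WT peaks. The nearest AHR KO peak to each gene was 14.2 kb from Lgr5, 32.8 kb from Ephb2, 40.4 kb from Smoc2, 44.0 kb from Lrig1 and 76.3 kb from Sox9, and more than 200 kb away for the others. The AHR KO list came from 1 library with a lower background and is much shorter, so the absence of peaks there cannot be told apart from a lower depth.

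A further list of 24 stem and progenitor genes gives the setting of these results. Of these, 20 had a WT peak (83.3%, beside 78.3% of protein-coding genes) and 7 had one in the top 10% of scores (29.2%, beside 23.0%). They held 105 peaks in all, of which 71 were CA repeats (67.6%, beside 57.3% of all WT peaks) and 0 held TNGCGTG, which allows a share of up to 2.86%, beside 2.84%. The highest were in introns of Ets2, a transcription factor (11.2, 5.26 kb from the start), of Tcf7l2, the main Wnt effector in crypts (11.0, 128 kb from the start), and of Cdk6, a cell cycle kinase (10.3, 168 kb from the start), all CA repeats. No WT peak was present at Cdca7, Hopx, Mex3a and Pcdh8. An AHR KO peak was present at 3 of the 24 (12.5%, beside 4.47%). At Ets2 it overlapped the highest WT peak and at Cdk6 a WT peak of 9.74, both CA repeats, while at Kcnq1 it overlapped a WT peak of 5.09 that was 42% masked. Promoter peaks were present at 3 of the 24 (12.5%, beside 9.27%), and none held TNGCGTG.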

How the data were processed

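AHR ChIP-seq of FICZ-treated colon organoids was deposited as 2 peak lists, for 4 WT cultures together and for 1 AHR KO library. Per the labels and the study's methods, the authors aligned single-end reads to mm10 (the GRCm38 sequence) with BWA 0.7.15, allowing 2 mismatches, marked duplicates with Picard 2.1.1 and called peaks against input with MACS2 2.1.1. The submitters' processing notes also name HOMER 4.8. The deposited score is a fold enrichment, a ratio of ChIP pileup plus 1 to background plus 1, as read from its values. The treatment of reads with several matches in the genome is not given in the sources used here, which bears on peaks in repeats. Reads per library were not analysed here. Positions were taken as counted from 0, so printed starts have 1 added.

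Here, peaks were assigned to genes of GENCODE M21 with a 10 kb flank, and sequence was read from GRCm38 in the 200 bp around each midpoint. Words were counted on both strands (N is any base): TNGCGTG, the GCGTG inside it, TGACTCA with TGAGTCA, and GGAATG. A window was a CA repeat if CACACA or TGTGTG occurred in it 3 times or more without overlap. Another tandem repeat was no CA repeat and had at least 40 bases in perfect runs of units of up to 6 bases. The CA rule came first, so some CA repeat windows at Lgr5, Lrig1, Smoc2 and Ephb2 had more bases in GA runs than in CA runs. Scripts used Python 3.11.15 with numpy 2.4.6, pandas 2.3.3, scipy 1.17.1 and matplotlib 3.10.9, and were tested on simulated data with planted words, repeats, overlaps and score steps. No test was run, since the lists hold no value per culture. Shares are given with 95% Wilson intervals, and a count of 0 with the limit that 3 counts allow.

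The 10 genes, the 24 further genes and the definitions were chosen with earlier results of these data known. All 10 genes were described by every peak. Of the further genes, the 3 with the highest peaks, those without a WT peak, those with a promoter peak holding TNGCGTG and those with an AHR KO peak were named, and the 5 genes nearest to Sox9 were chosen by the score of a promoter peak with TNGCGTG. Sequences were printed for windows with TNGCGTG and for the least masked window. Those of Myc, Cd44, Ephb3 and the Lgr5 peaks were chosen after their values were seen.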

Additional observations from a re-analysis of the deposited data

How the results depend on the processing

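With a 50 kb flank in place of 10 kb, WT peaks at the 10 genes rose from 60 to 125 and AHR KO peaks from 0 to 4, which lay 1 each near Lgr5, Lrig1, Smoc2 and Ephb2, beside 10.5% of protein-coding genes with an AHR KO peak. With the gene body alone, 13 of the 24 further genes had a WT peak in place of 20, beside 49.7% of protein-coding genes in place of 78.3%. With only the top 10% of scores there were 9 WT peaks at the 10 genes, 7 of the 24 further genes had a peak, beside 23.0% of protein-coding genes, and 1 of the 10 genes, Sox9, had a promoter peak, beside 328 of all 21938. A promoter of 2 kb upstream to 500 bp downstream gave 7 genes with a promoter peak in place of 4, beside 18.1% of protein-coding genes in place of 9.27%. Windows at least 50% masked were 25 of the 42 peaks at or above the median score of the list, in place of 39 of 60. Those 42 were 70.0% of the 60, beside 50.9% of all WT peaks. A limit of 75% masked gave 22 and one of 25% gave 60, beside 62.3% and 99.5% of all WT peaks. The other 35 alternatives moved a count by at most 1.5 times, or the median score by less than the SD of the 60 scores. That SD describes single peaks and is a wide limit for a median. The median score of 5.85 became 7.64 over the highest peak of each gene, 5.98 with a 2 kb flank and 5.65 with a 50 kb flank. The 35 include the limit of 20 bases for other tandem repeats, chosen after seeing the data. Leaving out each culture in turn was not run, because the WT list has no value per culture. No paired analysis was possible because neither list keeps the replicates apart. The background was 0.287 fragments in the AHR KO and 2.01 in WT, and what this did to the length of the AHR KO list was not tested.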

Other observations

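The Ascl2 peak 3.80 kb upstream and the higher of the Lgr5 pair at 45.6 and 46.5 kb, both on fully masked sequence without tandem runs, shared an unbroken stretch of 58 bases in opposite orientation. It lies on chr7:142973048-142973105 at Ascl2 and on chr10:115542036-115542093 at Lgr5 and the scores were 5.64 and 7.04. Whether reads from one copy were placed at the other was not tested. As read on the plus strand at Ascl2, in lower case since no part is marked, it is:
Ascl2 and Lgr5 shared stretch: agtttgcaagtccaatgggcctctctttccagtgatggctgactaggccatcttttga

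Bmi1 had no CA run of 20 bases and no peak. Among all 7774 protein-coding genes of up to 10 kb, 36.7% of the 1351 with 0 such runs in the searched region had a WT peak, 50.7% of the 1867 with 1, 65.4% of the 1729 with 2 and 82.4% of the 2827 with 3 or more. This grouping was chosen after the Bmi1 region had been seen, and the median gene length was 3.79 kb with 0 runs, 4.23 kb with 1, 4.76 kb with 2 and 5.40 kb with 3 or more.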
